A study of Mus musculus with 4 samples.

Results

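The 9 genes described here (Sall3, Dpf1, Erc2, Sh3gl3, Atp8a2, Adcy1, Cym, Apol10b and Apol11b) were chosen, from 10598 gene symbols, by their normalised counts in mouse thymus. They were selected on near silence in normal thymus and high values in wild-type thymus that had received N-methyl-N-nitrosourea (MNU). Their levels in the wild-type libraries are therefore a description and carry no test. The study sequenced thymus RNA of C57BL/6J mice to learn how deletion of Camk2g, a calcium/calmodulin-dependent kinase gene, acts in malignant and normal thymus. Single libraries represented 4 groups: wild type with vehicle (vehicle wild type), wild type with MNU (MNU wild type), CAMKIIgamma-/- with vehicle (vehicle knockout) and CAMKIIgamma-/- with MNU (MNU knockout). MNU, an alkylating mutagen that induces T-cell lymphoma in mice, had been injected once into the peritoneum at 75 mg/kg when the mice were 4 to 5 weeks old, and the treatment time was 6 months in all 4 groups. Whether a library came from 1 mouse or from pooled mice, which cells lacked Camk2g, and whether the MNU libraries came from thymus with a visible tumour is not stated in the labels. Because each group was a single library, no difference below has a replicate check or a p-value.

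Several of the 9 genes are best known outside the T lineage. Sall3 is a zinc finger transcription factor of the Spalt-like family, known from limb and nervous system development. Dpf1 is a subunit of the neuronal form of the BAF chromatin remodelling complex. Erc2 is a scaffold protein of the presynaptic active zone, and Sh3gl3 is an endophilin, a protein that bends membranes during vesicle endocytosis. Atp8a2 is a P4-ATPase, which moves phosphatidylserine to the inner leaflet of the membrane, and Adcy1 is an adenylyl cyclase stimulated by calcium and calmodulin; both are known from neurons. Cym encodes chymosin, an aspartic protease of the stomach of young mammals. Apol10b and Apol11b belong to the apolipoprotein L genes, which lie in a cluster and are often induced by interferon or inflammation.

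The promoter sequences of a few of these genes are shown because genes with a shared pattern of expression differed in the make-up of their promoters. The sequences are the 250 bases before the transcription start in RefSeq's table for build GRCm38.p6, where entries were found for 7 of the 9 genes and not for Sall3 and Atp8a2. The Dpf1 promoter (chr7:29303755-29304004, plus strand) had the most CG dinucleotides of the 7, and its 31 CG dinucleotides are in capitals. The Adcy1 promoter (chr11:7063183-7063432, plus strand) held the E-box CACGTG, in capitals, which begins 169 bases before the start. The Cym promoter (chr3:107221733-107221982, minus strand) held TATAAA, in capitals, which begins 29 bases before the start. In the promoters of Apol10b (chr15:77596126-77596375, minus strand) and Apol11b (chr15:77643287-77643536, minus strand) a stretch aligned between the 2 genes. The capitals mark the part of it that lies before the start. In Apol10b most of the stretch lies after the start and is not shown.
Dpf1: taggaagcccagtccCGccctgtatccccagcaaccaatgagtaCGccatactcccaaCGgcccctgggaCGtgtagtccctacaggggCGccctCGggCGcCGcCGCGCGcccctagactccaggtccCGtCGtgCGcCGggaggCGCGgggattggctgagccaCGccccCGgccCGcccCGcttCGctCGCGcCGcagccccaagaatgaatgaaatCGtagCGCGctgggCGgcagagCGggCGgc
Adcy1: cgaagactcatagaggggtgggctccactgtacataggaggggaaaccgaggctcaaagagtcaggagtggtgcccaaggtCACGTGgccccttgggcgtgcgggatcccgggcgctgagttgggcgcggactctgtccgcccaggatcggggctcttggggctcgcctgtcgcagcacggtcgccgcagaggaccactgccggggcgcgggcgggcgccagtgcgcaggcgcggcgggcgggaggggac
Cym: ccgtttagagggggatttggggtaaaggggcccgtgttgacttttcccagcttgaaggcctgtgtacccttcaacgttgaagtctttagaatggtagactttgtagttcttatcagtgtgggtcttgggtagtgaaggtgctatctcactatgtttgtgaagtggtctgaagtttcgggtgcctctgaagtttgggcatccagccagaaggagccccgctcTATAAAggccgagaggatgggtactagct
Apol10b: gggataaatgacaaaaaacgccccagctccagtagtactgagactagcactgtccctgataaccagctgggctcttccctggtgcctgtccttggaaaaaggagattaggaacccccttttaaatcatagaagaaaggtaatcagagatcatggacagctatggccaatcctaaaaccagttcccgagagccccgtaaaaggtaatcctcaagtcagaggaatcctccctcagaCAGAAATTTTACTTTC
Apol11b: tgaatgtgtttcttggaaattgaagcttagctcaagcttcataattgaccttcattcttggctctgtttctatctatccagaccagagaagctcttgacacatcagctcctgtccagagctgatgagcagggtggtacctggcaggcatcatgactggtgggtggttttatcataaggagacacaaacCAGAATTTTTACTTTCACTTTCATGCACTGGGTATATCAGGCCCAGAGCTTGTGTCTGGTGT

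The 7 promoters differed in their number of CG dinucleotides. Dpf1 held 31 CG dinucleotides, Adcy1 26, Erc2 20 and Sh3gl3 11, against a median of 6 over 32851 RefSeq promoters of the same length. Cym was at the median with 6. Apol10b held 3 and Apol11b 0. The E-box CACGTG, a sequence bound by MYC with MAX among other factors and the same on both strands, was found in 1 of the 7 promoters (Adcy1) and in 6.02% of all promoters. The sequence GTGGGAA, recognised by RBPJ of the NOTCH pathway, was searched on both strands and was in 0 of the 7 and in 5.42% of all. The sequence TATAAA, on either strand, was in 1 of the 7 (Cym) and in 12.4% of all. Apol10b and Apol11b aligned over 66 positions with 61 identical bases and no gap when the 50 bases after the start were included, from 16 bases before the start in Apol10b and from 62 bases before it in Apol11b. These matches describe letters in a window and are not evidence of binding.

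The label of each library was first set against Camk2g. The level of Camk2g was 2749 normalised counts in vehicle wild type, 3173 in MNU wild type, 489 in the library labelled vehicle knockout and 29.7 in MNU knockout. The library labelled vehicle knockout thus held 17.8% of the level in vehicle wild type, where MNU knockout held 1.08%, and it is called by its label throughout. The 4 libraries summed to between 32911362 and 34836257 normalised counts. All 13 thymocyte markers examined were present in every library, with a summed level of 422381 in vehicle wild type, 195199 in MNU wild type, 297705 in the library labelled vehicle knockout and 371064 in MNU knockout. The 12 thymic epithelial markers summed to between 67601 and 86796 in the other 3 libraries and to 2259 in MNU wild type, where Foxn1, the master regulator of thymic epithelium, was listed at 0. Macrophage markers (9 of 11 analysed) summed to 30902 in vehicle wild type and to between 49098 and 60235 in the other 3 libraries. B cell markers (6 of 7) summed to 3079, 2106, 4857 and 8084, and endothelial markers (4 of 7) to 7052, 8209, 6659 and 5964, in vehicle and MNU wild type, the library labelled vehicle knockout and MNU knockout. Of 16 neuron and neuroendocrine markers 2 were among the genes analysed here, of 7 glial markers 1, and of 10 stomach markers 0. The part of these differences in cell make-up in the results below was not tested. Fewer cells of a type and less RNA per cell cannot be told apart in whole tissue.

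All 9 genes had their highest value in MNU wild type and their second highest in the library labelled vehicle knockout, with vehicle wild type and MNU knockout far below. In MNU wild type the 9 genes lay between 1726 and 5366 normalised counts, with a median of 3023. In vehicle wild type they lay between 2.96 and 390 (median 32.7), and in MNU knockout between 1.05 and 473 (median 16.4). In the library labelled vehicle knockout they lay between 303 and 1087 (median 480). All 9 passed the filter, an average of 10 or more across the libraries.

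**Figure D1:**
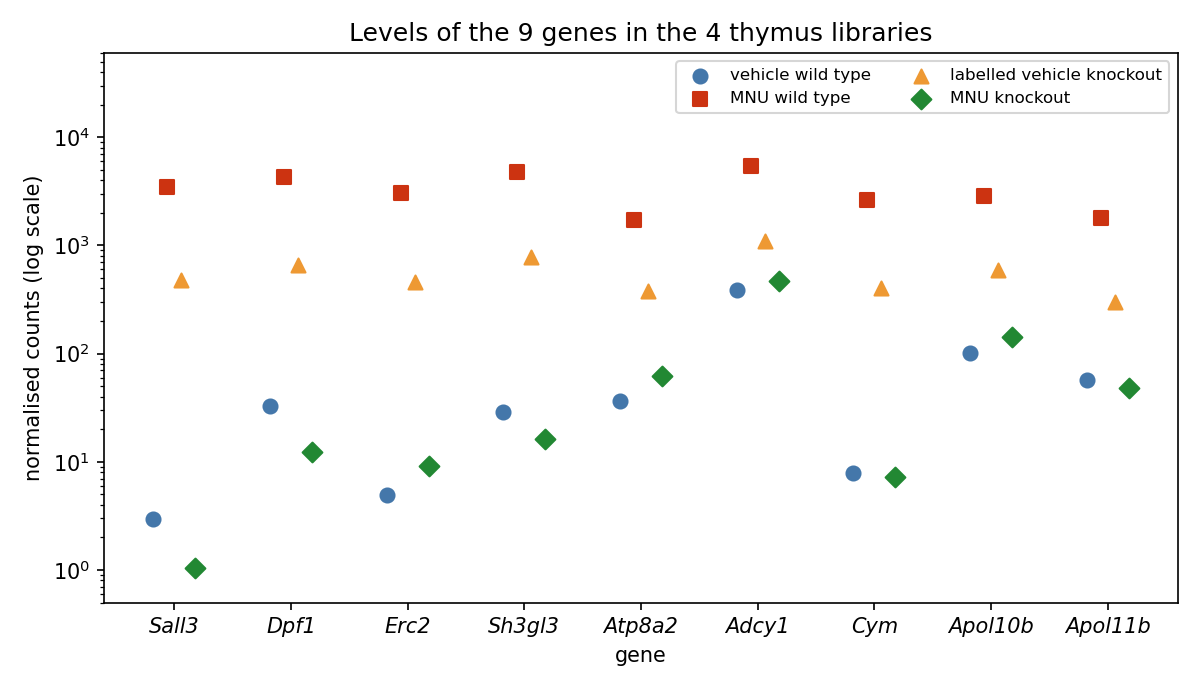
Normalised counts (log axis) of the 9 genes in each of the 4 libraries, 1 point per library, with no error bar since each group is 1 library. Every gene has its highest point in MNU wild type and its second highest in the library labelled vehicle knockout.

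The genes of the 2 nuclear proteins, Sall3 and Dpf1, had little signal outside MNU wild type and the library labelled vehicle knockout. Sall3 stood at 2.96 in vehicle wild type, 3434 in MNU wild type, 480 in the library labelled vehicle knockout and 1.05 in MNU knockout. No fold is given against values under 10 normalised counts, here or for Erc2 and Cym, since such a ratio rests on a few counts. Dpf1 stood at 32.7, 4332, 663 and 12.3 normalised counts in the same order of libraries. Dpf1 was 132-fold higher in MNU wild type than in vehicle wild type and 352-fold higher than in MNU knockout.

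The synaptic genes Erc2 and Sh3gl3 had the same order of libraries. Erc2 stood at 4.95 normalised counts in vehicle wild type, 3023 in MNU wild type, 456 in the library labelled vehicle knockout and 9.23 in MNU knockout. Sh3gl3 stood at 28.7, 4791, 780 and 16.4 in these libraries. MNU wild type was 167-fold above vehicle wild type for Sh3gl3. For Erc2 the log2 difference between these libraries was 8.67 with 2.5 added to each value and 6.09 with 40 added.

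Of the membrane enzyme genes Atp8a2 and Adcy1, the first had low values in both low libraries and the second did not. Atp8a2 stood at 36.7 normalised counts in vehicle wild type, 1726 in MNU wild type, 380 in the library labelled vehicle knockout and 62.3 in MNU knockout, so that MNU wild type was 47.1-fold above vehicle wild type. Adcy1 stood at 390, 5366, 1087 and 473 in the same order. Adcy1 was thus well detected in all 4 libraries, and its 13.8-fold difference between the wild-type libraries was the smallest of the 9. For Adcy1 the description of a gene nearly silent in normal thymus does not hold at the level of counts.

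Cym, the chymosin gene, stood at 7.92 normalised counts in vehicle wild type, 2612 in MNU wild type, 408 in the library labelled vehicle knockout and 7.18 in MNU knockout. The 2 low libraries were close together. The log2 difference between the wild-type libraries was 7.97 with 2.5 added to each value and 5.79 with 40 added.

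Apol10b and Apol11b had higher starting levels. Apol10b stood at 101 normalised counts in vehicle wild type, 2868 in MNU wild type, 596 in the library labelled vehicle knockout and 141 in MNU knockout. Apol11b stood at 56.5, 1807, 303 and 48.0 in the same order. The wild-type libraries differed 28.4-fold for Apol10b and 32.0-fold for Apol11b.

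On the log2(value + 10) scale, which understates differences of low genes, the change with MNU in wild type ran from 3.75 for Adcy1 to 8.05 for Sall3, with a median of 6.67 over the 9 genes and of -0.01 over all 10587 genes analysed. All 9 were at least 2-fold higher, as were 7.14% of all genes; since this contrast chose the genes, the count is no result about them. With 10 added, 8 of the 9 were among the 50 largest increases and Adcy1 was in place 89. A total of 36 genes stood no higher than the highest of the 9 in vehicle wild type and in MNU knockout. They also stood no lower than the lowest of the 9 in MNU wild type. Their ratios of MNU wild type to each of the low libraries were at least as large as the smallest of the 9. Of the 36, 27 are not among the 9. The 9 are thus examples from a larger group.

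**Figure D2:**
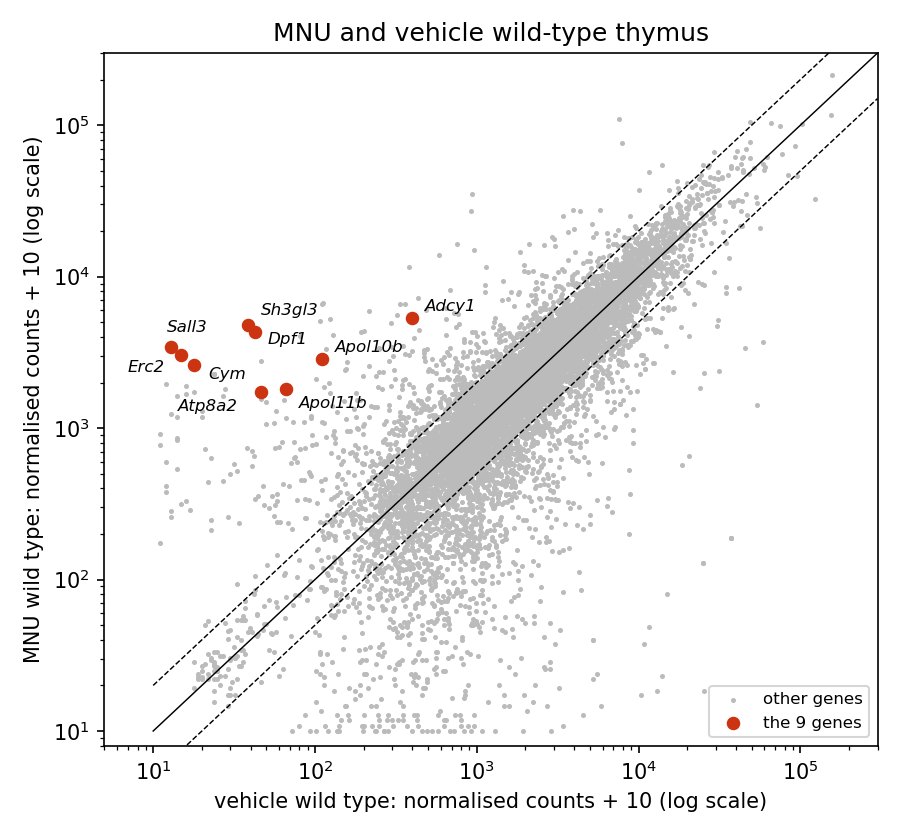
Normalised counts plus 10 of each gene analysed in vehicle wild type (x axis) and MNU wild type (y axis), both on log axes; the solid line marks equal levels and the dashed lines 2-fold differences. The 9 genes (red) lie at the upper left, from Adcy1 at 390 and 5366 to Sall3 at 2.96 and 3434.

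The order of the genes changed when length was taken into account. Per kilobase of the longest protein-coding GENCODE M21 transcript, the level in MNU wild type was 2909 for Sh3gl3, 2113 for Cym, 1876 for Dpf1 and 1234 for Apol10b. It was 799 for Apol11b, 485 for Sall3 and for Erc2, 438 for Adcy1 and 134 for Atp8a2. Adcy1, with the highest count of the 9, was thus next to last per kilobase. Its longest transcript has 12259 bases, and that of Cym has 1236. Sall3 and Erc2 had the same level per kilobase to 3 digits. Among 9229 genes with a length, Sh3gl3 lay at percentile 91.7 per kilobase in MNU wild type, Cym at 87.4 and Dpf1 at 85.4, whereas Atp8a2 lay at 12.7. In vehicle wild type all 9 lay at or under percentile 1.40 per kilobase, including Adcy1 at 1.02 and Apol10b at 1.40, and in MNU knockout all 9 lay at or under percentile 1.83. The genes were chosen for near silence in normal thymus, so their low percentiles in vehicle wild type follow from the choice and are no result. The percentiles are among genes that passed the authors' gene filter, which is unknown.

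Some reads of these genes can also come from other genes. Of all 50-base stretches of their GENCODE M21 transcripts, 15.2% were also in transcripts of another gene for Apol11b, mostly Apol11a (10.9%), and 14.7% for Atp8a2, mostly Gm19716 (13.1%). For Sh3gl3 this share was 8.60%, for Apol10b 6.11% with Apol10a (5.23%) as the main partner, and for Dpf1 and Erc2 under 1%. For Sall3, Adcy1 and Cym it was 0. How the authors treated reads that match several genes is not known from the labels. As far as shared sequence goes, the values of Apol11b and Atp8a2 are thus the least certain of the 9.

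In the knockout, the difference of the 9 genes with MNU depended on the reference library. Against the library labelled vehicle knockout, all 9 genes were at least 2-fold lower in MNU knockout (2.95% of all genes were lower), with log2 differences from -5.47 for Sall3 to -1.18 for Adcy1 and a median of -4.60. Against vehicle wild type, 0 of the 9 were 2-fold higher or lower in MNU knockout (2.67% of all genes in either direction). Those differences lay between -0.94 for Dpf1 and 0.63 for Atp8a2. With a pseudocount of 2.5 in place of 10, Dpf1 passed 2-fold in that comparison with a log2 difference of -1.25. The lower values in the MNU knockout thus rested on the library labelled vehicle knockout.

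The comparison of genotypes under vehicle rested on the same library. All 9 genes were at least 2-fold higher in the library labelled vehicle knockout than in vehicle wild type (2.59% of all genes were higher), with log2 differences from 1.46 for Adcy1 to 5.24 for Sall3. Sh3gl3 was 27.1-fold and Dpf1 20.3-fold higher there. Atp8a2 was 10.4-fold, Apol10b 5.89-fold, Apol11b 5.36-fold and Adcy1 2.79-fold higher. With MNU knockout in place of that library, 0 of the 9 differed 2-fold from vehicle wild type (2.67% of all genes did).

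After MNU, all 9 genes were lower in the knockout than in wild type, with log2 differences from -3.48 for Adcy1 to -8.28 for Sall3, and 7.37% of all genes were lower by at least 2-fold. This comparison shares the MNU wild-type library with the contrast that chose the genes. It does not use the library labelled vehicle knockout. Sh3gl3 was 293-fold higher in MNU wild type than in MNU knockout. For Apol11b that ratio was 37.6-fold, for Atp8a2 27.7-fold, for Apol10b 20.3-fold and for Adcy1 11.3-fold.

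In the library labelled vehicle knockout, the 9 genes stood at nearly the same fraction of their wild-type MNU level. This fraction was computed as the level above the mean of vehicle wild type and MNU knockout, in percent of the wild-type MNU level above that mean. It was 13.3% for Adcy1, 13.9% for Sall3, 14.3% for Apol11b, 14.9% for Dpf1 and for Erc2 and 15.4% for Cym. It was 15.9% for Sh3gl3, 17.3% for Apol10b and 19.7% for Atp8a2, with a median of 14.9%. The fraction thus varied less than 2-fold among genes whose levels in vehicle wild type ran from 2.96 to 390.

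Genes outside the 9 that were picked on a like pattern had fractions in the same range. For 31 other genes with more than 1000 normalised counts in MNU wild type, and there more than 20-fold above both vehicle wild type and MNU knockout, the median fraction was 15.3% (5th to 95th percentile 13.8% to 18.4%). Of the 9 genes 7 lay within these percentiles, with Adcy1 just under and Atp8a2 above them. All 31 and all 9 were higher in the library labelled vehicle knockout than in both low libraries. At the median fraction of the 31 genes, Cym would stand at 405 in that library, where 408 was measured, and Atp8a2 at 305, where 380 was measured. Camk2g itself, set above its level in MNU knockout, had a fraction of 14.6%. The 31 genes were picked on high values in MNU wild type and low values in vehicle wild type and MNU knockout. Elavl4, which is among them, was under 10 normalised counts in both low libraries. The 31 are therefore no independent reference for the 9. The source of the common fraction was not tested.

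**Figure D3:**
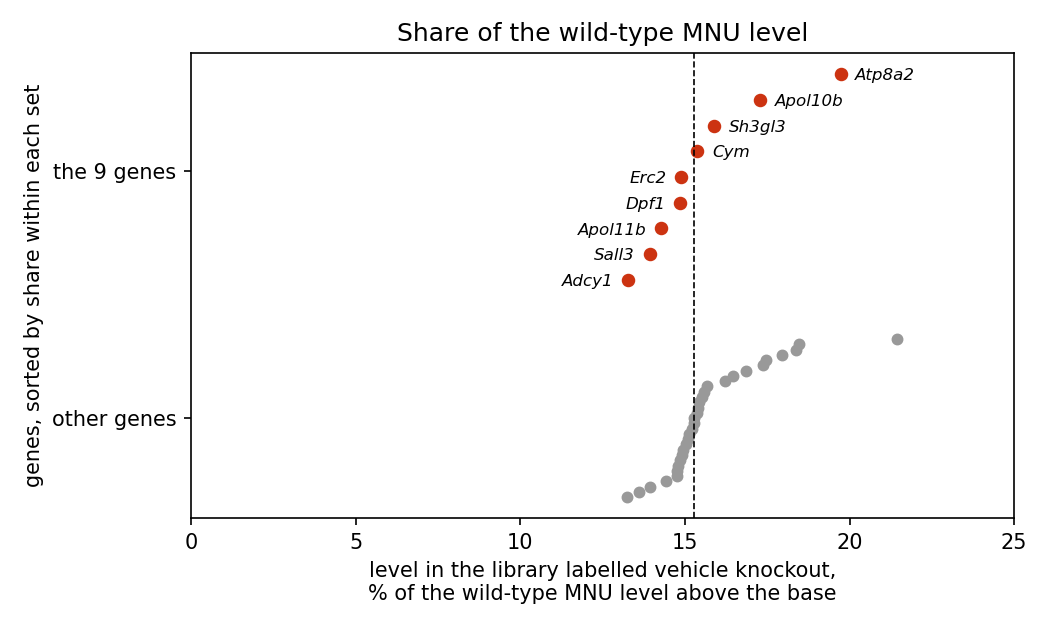
Level of each gene in the library labelled vehicle knockout, in percent of its wild-type MNU level above the mean of the other 2 libraries (x axis), for the 9 genes (red) and 31 other genes (grey), each sorted by value; the dashed line is the median of the 31. The 9 genes run from 13.3% (Adcy1) to 19.7% (Atp8a2), around the 15.3% of the other genes.

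The genes whose levels over the 4 libraries were most like those of the 9 included genes known from several tissues. Likeness was measured as the distance of the 4 log2(value + 10) values from the median profile of the 9 genes, leaving out provisional symbols. The nearest was Necab1, a calcium-binding protein of neurons, at 17.8 normalised counts in vehicle wild type, 1811 in MNU wild type, 293 in the library labelled vehicle knockout and 21.5 in MNU knockout (distance 1.21). Next came Pde6a, a phosphodiesterase subunit of rod photoreceptors, at 71.4, 4042, 645 and 28.6 in the same order (distance 1.23). Padi3, a peptidylarginine deiminase of hair follicles, followed at 36.7, 1540, 312 and 35.8 (distance 1.40). The other genes of the 8 nearest were Spsb4, Rpl3l, Patl2, Trnp1 and Kcnf1, with distances from 1.60 to 2.15. Rpl3l and Kcnf1 were under 10 normalised counts in vehicle wild type and in MNU knockout. Since the 8 were ranked against genes chosen on these same values, their likeness is no result. Within the 9, Dpf1 (distance 0.73) and Sh3gl3 (0.97) were nearest to the median profile and Adcy1 (5.48) was farthest. A total of 451 genes outside the 9 were nearer than Adcy1, a count that includes provisional symbols.

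Most neighbouring genes on the chromosome differed by less than 2-fold between the wild-type libraries, though the share that was higher exceeded that over all genes. For each of the 9 genes the 3 analysed genes on each side were taken in the order of the RefSeq gene table (GRCm38.p6), which gave 49 different neighbours outside the 9. Of these, 8 were at least 2-fold higher in MNU wild type than in vehicle wild type (16.3%, against 7.14% of all genes) and 6 were lower (12.2%, against 14.2%), with a median log2 difference of -0.03. None of the 6 neighbours of Sall3 or of Cym was 2-fold higher or lower. Next to Sall3, Atp9b stood at 3767 and 4265 and Mbp at 4995 and 4656 normalised counts in vehicle and MNU wild type.

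Of the 8 neighbours that were higher, 3 lay near Adcy1 and 2 in the apolipoprotein L cluster. On either side of Adcy1, Ramp3, a partner protein of the calcitonin receptor-like receptor, was 7.80-fold higher (122 against 951 normalised counts) and Igfbp3, an IGF-binding protein, 3.02-fold higher. One gene further, Tns3, an adhesion adaptor, was 4.33-fold higher (5151 against 22319). Beside Sh3gl3, Hdgfrp3 was 5.18-fold higher, near Erc2 the exchange factor gene Arhgef3 was 3.18-fold higher, and beside Dpf1 Sipa1l3 was 2.23-fold higher. Others went the other way. Shisa2, next to Atp8a2, stood at 1567 and 100 normalised counts in vehicle and MNU wild type (log2 difference -3.84). Ccm2, near Adcy1, stood at 5573 and 2545 (-1.13), and Stard5, near Sh3gl3, at 1175 and 536 (-1.12).

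**Figure D4:**
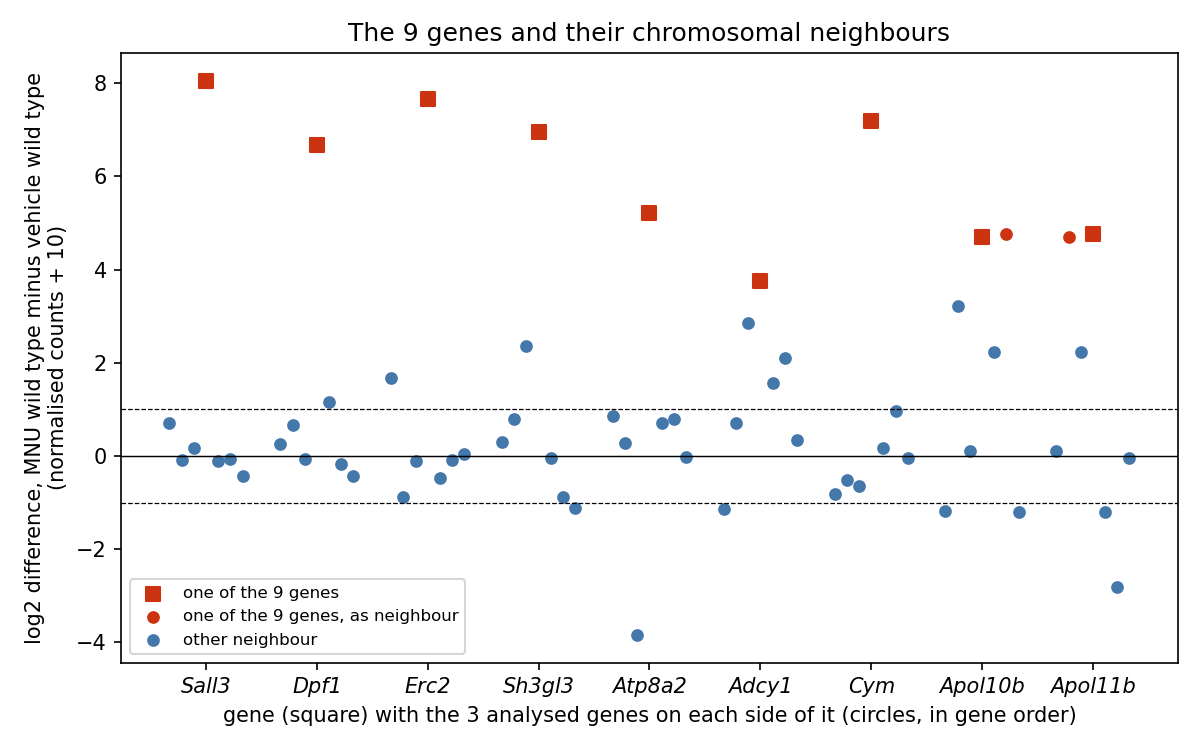
Log2 difference between MNU and vehicle wild type (normalised counts plus 10) for each of the 9 genes (squares) and the 3 analysed genes on each side of it (circles, in gene order); dashed lines mark 2-fold. Most neighbours lie between the dashed lines, 8 of 49 lie above and 6 below.

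The apolipoprotein L genes differed in direction within 1 cluster. In the order of the analysed genes, Apol7b, Apol11a, Apol7c, Apol10b, Gm8221, Apol11b, Apol7e and Apol9b followed each other with higher, lower and similar values in MNU wild type. Genes that were not analysed can lie between them. Apol11a was 15.8-fold higher in MNU wild type than in vehicle wild type (12.9 against 203 normalised counts) and Gm8221 4.79-fold higher (492 against 2358). Apol7c stood at 558 and 603. Apol7b (2611 and 1153) and Apol7e (1506 and 651) were lower in MNU wild type. Apol9b, an interferon-induced gene, was lower too, from 197 to 19.4, as were Apol9a (180 and 18.5) and Apol6 (796 and 73.3). Of the 7 analysed apolipoprotein L genes other than Apol10b and Apol11b, 1 was thus at least 2-fold higher and 5 were lower (7.14% and 14.2% of all genes), with a median log2 difference of -1.20. Of the 50-base stretches of Apol7b transcripts 69.3% were also in Apol7e, and of those of Apol9b 52.3% were also in Apol9a. Of those of Apol11b, 10.9% were also in Apol11a. The separate values of all these genes, with Apol11a among them, are therefore uncertain. Whether reads of Apol11b entered the value of Apol11a was not tested.

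The families and complexes of the 9 genes are given beside the shares over all genes in the same contrast, 7.14% higher and 14.2% lower by at least 2-fold. Since the 9 were chosen on this contrast and their relatives were not, a larger difference of the 9 than of a relative is no result. Of 21 analysed genes of the BAF complex other than Dpf1 1 was at least 2-fold higher in MNU wild type and 0 were lower, with a median log2 difference of 0.06; 1 of 21 is near the share over all genes. The 1 was Smarcd1, at 3330 normalised counts in vehicle and 7453 in MNU wild type. Dpf2, the widely expressed relative of Dpf1, stood at 4305 and 4249, and the ATPase gene Smarca4 at 16812 and 15384. Among the Spalt-like genes Sall2 was the other one analysed, at 1536 and 1350.

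Of the active zone genes, 3 of 16 others than Erc2 were analysed, and 1 was higher and 0 were lower in MNU wild type (7.14% and 14.2% of all genes), too few to compare. The higher gene, Rims4, which belongs to the RIM family of vesicle release proteins, stood at 1.97 normalised counts in vehicle wild type, 583 in MNU wild type, 116 in the library labelled vehicle knockout and 2.08 in MNU knockout, the order of libraries seen for Erc2. Ppfia1 and Unc13d, both also expressed in non-neuronal cells, stayed within 2-fold at 4170 and 5551 and at 3430 and 2170 in vehicle and MNU wild type. The 2 neuron and neuroendocrine markers analysed differed in direction: Elavl4, an RNA-binding protein of neurons, stood at 3.95 in vehicle and 1176 in MNU wild type, and Chga, a granule protein of neuroendocrine cells, at 337 and 8.25. Both Rims4 and Elavl4 were under 10 normalised counts in vehicle wild type and in MNU knockout. They passed the filter only through the libraries in which they were high, so their likeness to Erc2 is no result. The part of neuronal cells in the levels of Erc2, Dpf1 and Sh3gl3 was not tested.

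Of 18 analysed endocytosis genes other than Sh3gl3, 1 was higher and 2 were lower in MNU wild type (median log2 difference -0.24), near the 7.14% and 14.2% of all genes. The widely expressed endophilin genes Sh3gl1 (4289 and 2895), Sh3glb1 (5752 and 3983) and Sh3glb2 (2386 and 1854) were all lower by less than 2-fold. Pacsin2 was 2.17-fold higher, and Bin1, a membrane-bending protein, was 5.13-fold lower (1740 against 339).

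The counts for the relatives of Atp8a2 and Adcy1 were too small to be read against the 7.14% and 14.2% of all genes. Among 10 other flippase genes 1 was higher and 2 were lower in MNU wild type: Atp8a1, the closest paralog of Atp8a2, was 2.12-fold higher (3203 against 6798), while Atp10a stood at 5782 and 1832. Tmem30a, the partner subunit of most flippases, stood at 5511 and 3475. Among 20 other adenylyl cyclase and cAMP effector genes 3 were higher and 2 were lower, with a median of -0.07. The higher ones were the phosphodiesterase gene Pde3b (6.54-fold, 1441 against 9419), the protein kinase A regulatory gene Prkar2a (3.36-fold) and Pde8a (2.61-fold). The lower ones were Pde4b (2692 and 484) and Pde7a (1633 and 421). The cyclase genes Adcy3, Adcy6 and Adcy7 stayed within 2-fold, at 1189 and 1471, 9979 and 6388, and 4377 and 3098.

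Among aspartic proteases other than Cym, 0 of 4 were higher and 1 was lower in MNU wild type (7.14% and 14.2% of all genes), too few genes to read a difference from all genes. Ctsd, the lysosomal cathepsin D gene, stood at 20494 and 29635, and Ctse, cathepsin E, at 847 and 701. Napsa, the napsin A gene, was 6.81-fold lower (461 against 67.7).

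**Figure D5:**
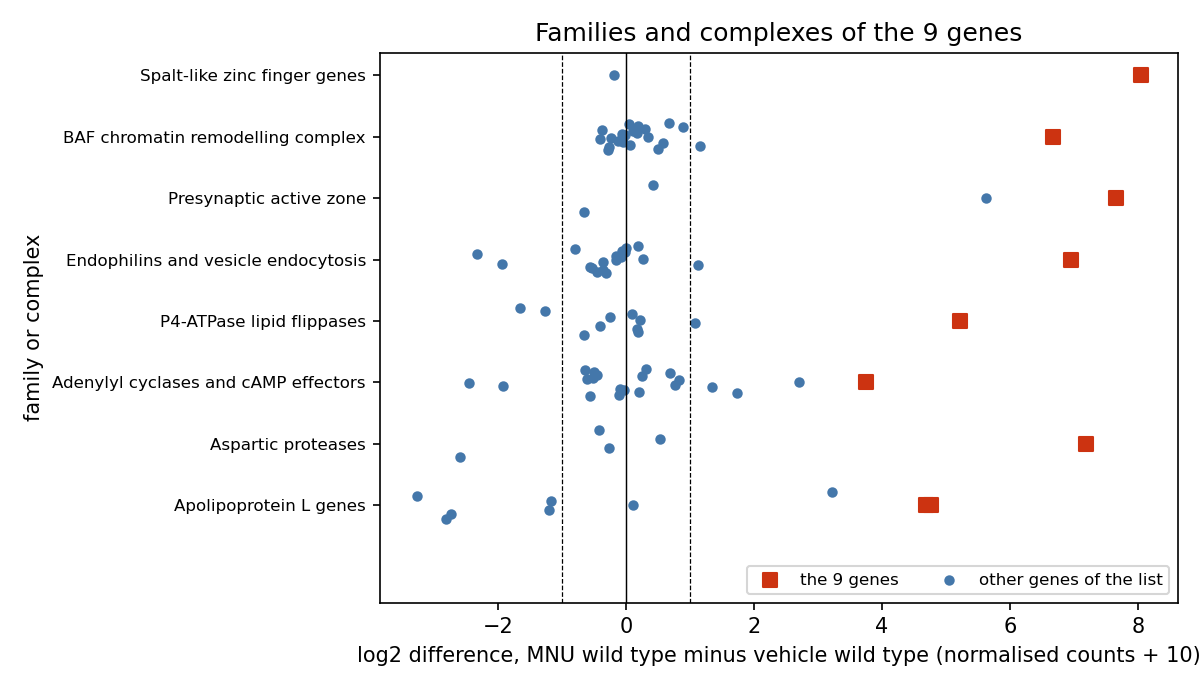
Log2 difference between MNU and vehicle wild type (normalised counts plus 10) for the 9 genes (red squares) and the other analysed genes of their family or complex (blue circles); dashed lines mark 2-fold. The 9 genes were chosen on this difference, so their place to the right of their relatives is no result; Rims4 and Apol11a are the relatives farthest to the right.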

How the data were processed

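RNA had been purified with an RNeasy kit, checked for integrity and made into TruSeq libraries, per the labels' protocols. The submitters' processing notes list TopHat2 2.0.8b, edgeR and the mm9 build but not what each was used for. The deposited table holds 1 normalised count signal per gene and library, per the file headers. The authors' counting, normalisation and gene filter are unknown (not given in the sources used here). These values are not whole numbers, so no count model and no counting interval was computed.

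The authors' scaling was kept. Genes averaging 10 or more across the 4 libraries were kept (10587 of 10598), 10 was added and the log2 was taken, and a gene was called higher or lower at 2-fold. Ratios are of the values themselves. Lengths, shared 50-base stretches and transcripts came from GENCODE M21, gene order and promoters from RefSeq GRCm38.p6, a build other than mm9. The script was tested on simulated data. Python 3.11.15, pandas 2.3.3, NumPy 2.4.6, Biopython 1.88 and matplotlib 3.10.9 were used.

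The 9 genes, the family and marker lists and the comparisons were chosen with earlier results of these data known. Named genes were the 9, Camk2g, analysed members of the lists, the 3 nearest analysed genes on each side, and the 8 genes nearest to the median profile. Alternatives were other pseudocounts, filters, scalings and thresholds, and other reference libraries; subtraction of the share of the wild-type MNU level was added after seeing the data.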

Additional observations from a re-analysis of the deposited data

Results flagged for a closer look

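For all 9 genes the difference with MNU went up in the wild type and down in the knockout, by log2(value + 10), in the values as deposited. Of all genes, 7.14% were at least 2-fold higher with MNU in wild type and 2.95% at least 2-fold lower in the knockout. How many of all genes went up in the one and down in the other was not counted. The wild-type difference exceeded the knockout difference by 13.52 on the log2 scale for Sall3, 12.26 for Erc2, 11.86 for Sh3gl3, 11.80 for Cym and 11.58 for Dpf1. For Atp8a2 this gap was 7.65, for Apol11b 7.20, for Apol10b 6.70 and for Adcy1 4.93. Each genotype had 1 library with and 1 without MNU, so the difference between genotypes was not tested, and the genes had been chosen on the wild-type difference. The knockout difference rested on the library labelled vehicle knockout: with vehicle wild type in its place, 0 of the 9 genes differed 2-fold (2.67% of all genes did).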

How the results depend on the processing

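Of the counts over the 9 genes, those for MNU in wild type and for genotype after MNU stayed within 1.5 times under every pseudocount, filter, scaling and threshold tried. The genes were chosen on the wild-type difference, and the genotype comparison after MNU shares its MNU wild-type library. The stability of these counts is therefore no result about the genes. With vehicle wild type in place of the library labelled vehicle knockout, 0 of the 9 were lower with MNU in the knockout (117 of all 10587 genes were). The log2 differences turned to 0.36 for Erc2, 0.63 for Atp8a2, 0.27 for Adcy1 and 0.44 for Apol10b. With MNU knockout in place of the library labelled vehicle knockout, 0 were higher than vehicle wild type (166 of all 10587 genes were). The differences turned to -0.23 for Sall3, -0.94 for Dpf1, -0.55 for Sh3gl3, -0.061 for Cym and -0.20 for Apol11b. A further alternative, chosen after seeing the data, subtracted the median share of the 31 other genes (15.3% of the wild-type MNU level) from that library. With it, 1 gene of the 9 (Sh3gl3) was lower with MNU in the knockout, as were 168 of all 10588 genes. The differences then turned to 0.14 for Sall3, 0.59 for Dpf1, 0.94 for Erc2, 0.49 for Adcy1 and 0.37 for Apol11b. Compared with vehicle wild type, 1 gene (Atp8a2) was then higher and 1 (Dpf1) lower, beside 149 and 34 of all 10588 genes. Those differences turned to -0.37 for Sall3, -1.53 for Dpf1, -0.58 for Erc2, -0.22 for Adcy1 and -0.57 for Apol11b. These turns follow from the construction of the alternatives. At a pseudocount of 2.5, 1 gene (Dpf1) was lower in MNU knockout than in vehicle wild type, as were 126 of all 10587 genes. The median share of the 9 genes was 14.93% with vehicle wild type alone as the base, 15.06% with MNU knockout alone, 15.05% with median-of-ratios scaling and 15.37% with upper-quartile scaling. No paired analysis was possible because each group has 1 library. With 1 library per group, the spread between mice is unknown for every value.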
